A study of Mus musculus with 9 samples.

Results

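The 4 libraries described here came from whole corneas of Aire knockout (Aire KO) mice given PBS (phosphate-buffered saline, a salt solution), and they were 4 of 9 bulk RNA-seq libraries in the series. The members were the count columns of KO + PBS bio replicates 1 to 4, taken by their labels, scaled among themselves and set against no other column. The sample titles give 24 hr, whereas the series' design text places the corneas at day 7 of treatment and 6 wk of age, and nothing in the labels says which applies. All 4 samples carry the same genotype, tissue and treatment, and the labels call them biological replicates without saying whether each was 1 mouse, 1 eye or a pool. Aire is a transcription factor of the thymus that lets developing T cells meet the proteins of other tissues, and mice without it develop autoimmune disease of several organs, the lacrimal gland among them. The design text names the knockout as dry eye disease. The question that 1 group can answer is how far corneas of 1 genotype and 1 treatment differ among themselves, and in which genes.

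The cornea is a clear layered tissue: a stratified epithelium with its own keratins at the surface, a collagen stroma kept by keratocytes, and a single layer of endothelial cells on a thick basement membrane called Descemet membrane. It holds few blood vessels and few resident immune cells. The iris, ciliary body, lens and retina lie behind it, and the eye muscles and conjunctiva beside it. From which tissue the transcripts of the lists named for them came was not tested. In a bulk sample, fewer cells of a type and less RNA per cell cannot be told apart, and this holds for every level given here.

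The libraries held between 22944576 and 27116073 counts. Of the 34142 gene rows, 19302 to 19882 had at least 1 count in a library, and the 14366 genes that reached a mean of 1 CPM (counts scaled to a common library size) are those described. CPM values were scaled between the libraries by the trimmed mean of M values (TMM), and 3 counts, the limit that a count of 0 allows, corresponded to 0.111 to 0.141 CPM in the 4 libraries. Such limits, and the intervals given below, cover counting error only. No pair of libraries agreed within sampling noise (chi-square per degree of freedom over genes between 48.7 and 359), so none was another library deposited again. There is no contrast within 1 group, and therefore no test of a difference between conditions and no p-value: the values are a description of these 4 libraries.

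The targeted gene could not check the genotype. Aire was at 7, 9, 7 and 2 counts in replicates 1 to 4, or 0.329, 0.353, 0.260 and 0.0891 CPM, which is under the mean of 1 CPM used here, and no source used here says which exons were deleted. The tissue label did match the corneal markers. Krt12, the keratin specific to corneal epithelium, was at 7474, 5184, 6948 and 6489 CPM, and Aldh3a1, the crystallin-like dehydrogenase of that epithelium, was at 18438, 9154, 18796 and 16812 CPM. Kera, the keratocyte proteoglycan keratocan, was at 50.4, 256, 77.6 and 216 CPM, so all 3 were present in all 4 libraries. The levels of Xist, the RNA that coats the inactive X chromosome, were 1119, 690.3, 529 and 294 CPM, a 3.81-fold range, and the Y-linked genes Ddx3y, Eif2s3y, Kdm5d and Uty had 0 or 1 count in each library.

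Replicate 2 stood apart from the other 3. On log2(CPM + 0.5) values, 60.002% of the variance among the 4 libraries lay on a first principal component that scored replicate 2 at 81.5 and replicates 1, 3 and 4 at -58.9, -14.1 and -8.43. A second component with 27.9% scored replicate 4 highest at 53.1 and replicate 1 lowest at -38.7. The third, with 12.1%, scored replicate 3 lowest at -38.9. Across genes, which are not independent replicates, the rank correlation of 2 libraries' levels ran from 0.896 between replicates 1 and 2 to 0.972 between replicates 1 and 3. The protein-coding genes of the mitochondrial genome took 0.797% of the counts in replicate 1, 6.13% in replicate 2 (95% Wilson interval 6.12 to 6.14), 0.924% in replicate 3 and 0.882% in replicate 4. The common biological coefficient of variation, the spread between libraries beyond counting noise over all genes, was 0.468 with all 4 libraries and 0.371 without replicate 2.

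Of the 14366 genes, 5556 (38.7%) had a highest library more than 2-fold above their lowest, and 2291 of 14003 (16.4%) did so when replicate 2 was left out. The median gene varied by an SD of 0.35 on the log2 scale, and the spread depended on level. The median SD was 0.68 for genes with a mean of 1 to 5 CPM, 0.36 for 5 to 20 CPM, 0.27 for 20 to 100 CPM and 0.34 above 100 CPM. Replicate 1 was the highest library for 28.7% of genes, replicate 2 for 37.8%, replicate 3 for 13.3% and replicate 4 for 20.2%. The lowest library was replicate 1 for 30.8% of genes, replicate 2 for 38.5%, replicate 3 for 11.4% and replicate 4 for 19.3%. These shares are the background for the counts below of a list's genes highest or lowest in a library. Such counts cover genes that reached the mean of 1 CPM, which a low gene can do through 1 high library, so they describe these genes and are no test. More than 2-fold above each of the other 3 libraries, replicate 2 had 1380 genes (9.61%), replicate 4 had 358 (2.49%), replicate 3 had 38 (0.265%) and replicate 1 had 33 (0.23%). More than 2-fold below each of the others, replicate 1 had 771 genes (5.37%), replicate 2 had 566 (3.94%), replicate 3 had 37 (0.258%) and replicate 4 had 29 (0.202%).

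**Figure D1:**
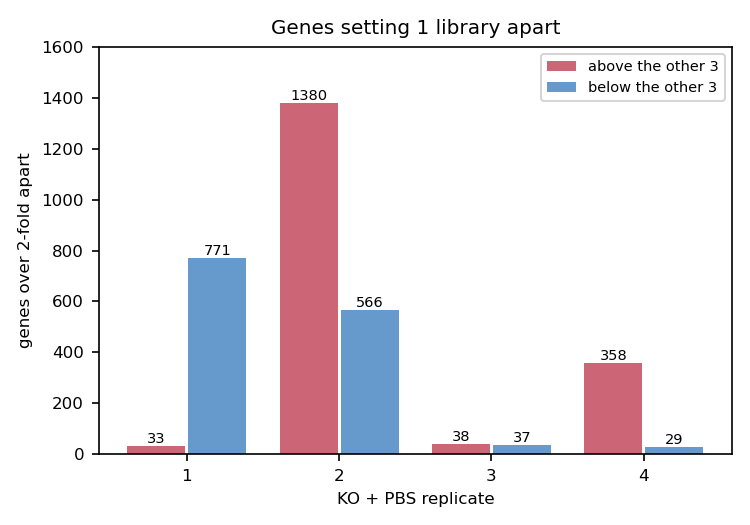
Bars give the number of genes, of 14366, whose level in 1 library was more than 2-fold above (red) or below (blue) the level in each of the other 3 libraries, on the log2(CPM + 0.5) scale. Replicate 2 had the most genes above (1380), and replicate 1 the most below (771).

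The most abundant nuclear transcripts per unit of length were those of the corneal epithelium. In TPM (counts divided by exon length and scaled to a common total, mean ± SD, n = 4), Krt5, the basal keratin, was at 36603 ± 10832. Aldh3a1 was at 24406 ± 6617, and Krt12 at 10597 ± 1421. Gsta4 and Gsto1, which use glutathione to detoxify, were at 10968 ± 2663 and 8828 ± 2854 TPM. Aqp5, the epithelial water channel, was at 7362 ± 1015 TPM, and Tmsb4x, which binds actin monomers, at 11182 ± 2049 TPM. The other 8 of the 15 most abundant were Lypd2, Asprv1 (a protease of stratified epithelia), Calml3, Rplp1 (a ribosomal protein), S100a6, Eef1a1 (a translation factor), Krt6a and Psca, with means between 5499 for Psca and 10561 for Lypd2.

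Most of these abundant genes were lowest in replicate 2. Krt5 read 34149, 14886, 29836 and 28408 CPM in replicates 1 to 4, a 2.29-fold range set by replicate 2. Asprv1 read 4633, 1656, 5159 and 4579.8 CPM, a 3.12-fold range, and Gsto1 read 6509, 2961, 7029 and 7366 CPM. The exception was Rplp1, at 1005, 1523, 1220.4 and 1206 CPM, which was highest in replicate 2. Krt12 and Aqp5 moved less, with ranges of 1.44-fold and 1.44-fold, and Eef1a1 ranged 1.34-fold with 5229, 4412, 5161 and 5912 CPM.

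Over the 25 genes of the corneal epithelium list, 17 were lowest in replicate 2 (background 38.5%), 17 had a range over 2-fold (background 38.7%), and the list's median deviation from its own 4-library mean was 0.28, -0.67, 0.10 and 0.17 on the log2 scale in replicates 1 to 4. Without replicate 2 the range of that median was 0.16. Dsp, which anchors keratins at desmosomes, read 6291, 1779, 3434 and 3142 CPM. Klf4, a transcription factor of surface epithelium, read 2462, 562, 1869 and 2134 CPM, and Trp63, the p63 factor of basal epithelial cells, read 497, 128, 358 and 332 CPM. Replicate 2 was the lowest of the 4 for all 3 genes. The list did not move as a block, however: 6 of 25 members had its order of libraries (1, 4, 3, 2 from high to low), an order held by 8.94% of all genes. Krt15, a keratin of the limbal and conjunctival border, went the other way at 314, 1930.3, 761 and 1207 CPM, and Krt17 read 7.62, 116, 15.3 and 91.7 CPM, both highest in replicate 2 and next highest in replicate 4.

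The epithelial adhesion and barrier list behaved in a like way in replicate 2 and also marked replicate 1. Of 21 genes, 20 were highest in replicate 1 (background 28.7%), 17 were lowest in replicate 2 (background 38.5%) and none was more than 2-fold above the others in replicate 1. Col17a1, the transmembrane collagen of hemidesmosomes, read 4126, 1598, 3169.7 and 2465 CPM. Ppl, the cornified envelope protein periplakin, read 3007, 915, 2003 and 1806 CPM, and Dsg1b, a desmosomal cadherin, 182, 34.0, 121 and 147 CPM. Cldn1, a tight junction claudin, was the 1 member not highest in replicate 1, at 34.5, 52.9, 34.0 and 53.6 CPM.

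Genes of stressed and conjunctival epithelium were divided. Of the 17 cornified and stress genes that reached the mean of 1 CPM, 9 were highest in replicate 2 (background 37.8%), 5 in replicate 4 (20.2%) and 3 in replicate 1 (28.7%). In replicate 2, 6 were lowest, which is near the background of 38.5%. The examples with high values in replicates 2 and 4 were picked after their values were seen. Sprr1b and Sprr1a, precursors of the cornified envelope, read 1.60, 35.3, 0.743 and 20.6 CPM for Sprr1b and 23.8, 204, 21.02 and 144 CPM for Sprr1a. Krt16 read 26.5, 138, 37.2 and 134 CPM. In each, both replicates 2 and 4 were above both replicates 1 and 3. Krt4, a keratin of conjunctiva and other moist mucosae, read 29.2, 833, 137 and 236 CPM, a 28.6-fold range. Of the 10 conjunctiva and goblet cell genes, 5 were highest in replicate 2, 3 in replicate 4 and 2 in replicate 1. With so few genes, these counts are not far from the backgrounds of 37.8%, 20.2% and 28.7%. Muc4, a membrane mucin, went against Krt4 at 2897, 426, 1315 and 1287 CPM. The stress keratins Krt6a and Krt6b did not follow them, at 6069, 2751, 5011 and 5742 CPM for Krt6a and 3858, 1113, 3580.1 and 3848 CPM for Krt6b, both lowest in replicate 2; counts of this pair may be uncertain, since the genes are close copies. Because those 2 genes dominate, the summed level of the cornified and stress list was lowest in replicate 2 (10261, 4541, 8882 and 10212 CPM) while its median deviation was highest there (0.42). The list's lowest library was replicate 3 and became replicate 1 with upper-quartile scaling or library totals.

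The stroma differed between libraries far more than the epithelium. All 31 keratocyte and stroma genes were highest in replicate 2 (background 37.8%), 25 were lowest in replicate 1, and 29 had a range over 2-fold (background 38.7%). Their summed level was 3386, 16297, 4479 and 8855 CPM. The order 2, 4, 3, 1 was held by 23 of the 31, against 10.1% of all genes. Col1a1 and Col1a2, the chains of type I collagen, read 529.7, 3311, 849 and 2066 CPM for Col1a1 and 561, 2549, 783 and 1653 CPM for Col1a2. Dcn, the proteoglycan decorin, read 209, 1182, 413 and 909.8 CPM, and Lum, lumican, read 59.5, 318, 100.3 and 263 CPM. The spread was not set by replicate 2 alone. When replicate 2 was left out, replicate 4 exceeded replicates 1 and 3 in 25 of 31 genes, as in 34.9% of all genes. The median then ranged by 1.63.

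The stromal genes kept their proportions while their levels moved. The ratio of Lum to Dcn in CPM was 0.285, 0.269, 0.243 and 0.289 and that of Kera to Dcn was 0.242, 0.216, 0.188 and 0.237 in replicates 1 to 4. Ptgds, the prostaglandin D synthase, departed from them with 63.2, 2231, 241 and 90.5 CPM: replicate 4 was near replicate 1, where the collagens of replicate 4 were well above it. Angptl7, a secreted protein of corneal stroma, followed the collagens at 126, 513, 167 and 345 CPM.

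Myh11, Acta2 and Cnn1, contractile genes of smooth muscle, were far above the other libraries in replicate 2 alone. Myh11, the smooth muscle myosin, read 5.74, 288, 20.5 and 7.31 CPM, and Acta2, smooth muscle actin, read 9.08, 334, 30.5 and 18.5 CPM. Cnn1, calponin, read 0.565, 11.3, 1.49 and 0.668 CPM. Replicate 2 was 14.0-fold above the next library for Myh11 and 10.95-fold for Acta2. Acta2 also marks myofibroblasts, the contractile cells of a scar, and Myh11 marks smooth muscle such as that of the iris and vessels; Lox, which crosslinks collagen, read 13.9, 82.0, 22.4 and 47.9 CPM, and which cells carried Acta2 was not tested. Of the 23 scar and myofibroblast genes, 20 were highest in replicate 2 (background 37.8%), 2 in replicate 1 and 1 in replicate 4. Tgfbi, the member of highest mean, read 2055, 1239, 1755 and 1741 CPM and was lowest in replicate 2. Sparc read 416, 1725, 645 and 1121 CPM. Fn1 read 422, 426, 238 and 259 CPM, with replicates 1 and 2 close together.

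By the median of the list, blood vessel genes had the same order as the stroma. That order was held by 8 of the 16 genes, against 10.1% of all genes. All 16 were highest in replicate 2, 15 were lowest in replicate 1, and their sum was 55.2, 343, 109 and 153 CPM. Cldn5, the tight junction protein of endothelium, read 1.27, 22.4, 5.09 and 2.32 CPM, and Pecam1, an adhesion protein of endothelial cells, read 4.00, 21.05, 6.80 and 16.5 CPM. In replicate 4 Pecam1 was close to replicate 2 while Cldn5 was close to replicate 1. Of the 19 genes of the corneal endothelium and Descemet membrane list, 16 were highest in replicate 2 and 8 were lowest in replicate 4. Col8a2, a collagen of Descemet membrane, read 723, 1420.2, 481 and 390.1 CPM, and Slc4a11, the ion transporter of corneal endothelium, read 237, 621, 149.7 and 147 CPM, highest in replicate 2 with replicate 1 next.

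By the median of its genes, pigment was the list furthest above its 4-library mean in replicate 2 (2.76 on the log2 scale). Melanocytes and the pigmented layers of the iris, ciliary body and retina make melanin with enzymes such as Tyr, Tyrp1 and Dct, under the transcription factor Mitf. Of 17 such genes, 16 were highest in replicate 2, 13 of them more than 2-fold above each of the other libraries (background 9.61%). The sum over the 18 genes of the list was 526, 5738, 966 and 530.5 CPM. Pmel, which forms the melanosome's fibrils, read 42.8, 1341, 147 and 48.6 CPM, and Mlana, another melanosome protein, read 4.14, 147, 13.1 and 8.20 CPM. Tyr, the first enzyme of melanin synthesis, read 5.55, 119, 16.6 and 4.14 CPM. The 1 exception was Kit, a receptor of melanocytes that is also made elsewhere, at 238, 98.4, 188 and 123 CPM, lowest in replicate 2.

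The remaining order within the pigment genes depended on the 3 other libraries. Without replicate 2, 13 of 17 were highest in replicate 3, as were 27.7% of all genes. The range of the list's median was then 1.38 on the log2 scale, against 4.196 with all 4 libraries. Dct to Tyrp1 was 2.68, 2.05, 2.14 and 2.07 in CPM and Pmel to Tyrp1 1.53, 1.45, 1.32 and 0.932, so the proportions moved by far less than the levels. Sox10, a neural crest factor of melanocytes and Schwann cells, read 0.800, 27.5, 4.90 and 6.24 CPM, and Oca2, a melanosomal transporter, 1.18, 72.0, 7.39 and 1.69 CPM.

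The promoters of Dct and Tyrp1 are shown since both genes were highest in replicate 2, with ranges of 25.2-fold and 32.9-fold, and their windows hold the letters of the M-box core, CATGTG, a motif that MITF binds. The windows run from 250 bases before to 50 after the RefSeq gene start (RefSeq, GRCm38.p6), 5′ to 3′ on the gene's strand, and capitals mark the motif on either strand. Dct is at chr14:118052197-118052496, minus strand, and Tyrp1 at chr4:80833963-80834262, plus strand.
Dct: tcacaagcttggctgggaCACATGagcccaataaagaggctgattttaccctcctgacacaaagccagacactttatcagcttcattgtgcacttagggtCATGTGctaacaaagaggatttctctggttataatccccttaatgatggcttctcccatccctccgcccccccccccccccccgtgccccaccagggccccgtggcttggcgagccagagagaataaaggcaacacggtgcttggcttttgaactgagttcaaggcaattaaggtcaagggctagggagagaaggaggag
Tyrp1: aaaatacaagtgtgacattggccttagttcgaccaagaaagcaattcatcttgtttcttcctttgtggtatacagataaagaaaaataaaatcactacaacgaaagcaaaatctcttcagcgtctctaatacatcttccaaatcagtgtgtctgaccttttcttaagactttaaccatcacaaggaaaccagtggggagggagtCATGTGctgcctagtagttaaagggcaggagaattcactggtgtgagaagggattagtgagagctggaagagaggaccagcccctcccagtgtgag
Of the 17 pigment genes, 10 had a promoter in the table and 6 of these held the motif, on both strands searched, as did 14.2% of all 32851 promoters of that length. A match is a description of letters and not a site in use.

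Genes of the anterior pigmented tissues near the cornea were also high in replicate 2. Of the 18 iris and ciliary body genes, 14 were highest there. Zic1, a transcription factor, read 1.04, 68.6, 6.68 and 1.34 CPM, a 66.2-fold range. Ttr, the thyroxine carrier made by ciliary and retinal pigment epithelium, read 2.45, 134, 29.5 and 26.7 CPM, and Mfrp, a membrane protein of these epithelia, read 5.74, 130.1, 13.9 and 2.32 CPM. The 3 genes of highest mean in that list moved little: Gja1, a gap junction protein, read 652, 692, 555 and 466 CPM.

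Lens genes had an order of their own. Crystallins are the soluble proteins that fill the lens fibres. Of the 21 lens genes that reached the mean of 1 CPM, among 26 listed, 20 were highest in replicate 2 and these 21 were each lowest in replicate 3, 16 of them more than 2-fold below each of the other libraries (background 0.258%). The sum over the 26 listed was 3569, 10649.6, 737 and 3084 CPM, a 14.5-fold range. Cryaa, alpha crystallin, read 932, 3266, 172 and 765 CPM, and Cryba1, a beta crystallin, read 376, 1307, 69.3 and 312 CPM. The order 2, 1, 4, 3 was held by 18 of 21, against 3.11% of all genes. The ratio of Cryaa to Cryba1 in CPM was 2.48, 2.50, 2.49 and 2.45 in replicates 1 to 4, nearly constant over an 18.9-fold range of Cryaa. The list's median ranged by 3.78 on the log2 scale with all 4 libraries and by 1.88 without replicate 3. Mip, a water channel of lens fibres, was the exception at 13.6, 5.26, 3.01 and 5.93 CPM. Gamma crystallins Crygb to Cryge share long near-identical stretches, and their split of counts may be uncertain.

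Photoreceptor genes had yet another order. In rods, light leads to activation of transducin (Gnat1), which in turn activates a phosphodiesterase (Pde6a, Pde6b, Pde6g), and arrestin (Sag) ends the signal. Of 22 genes of retina and pigment epithelium, 18 were highest in replicate 3 (background 13.3%), and 20 were more than 2-fold below the others in replicate 1 (background 5.37%). Their sum was 65.4, 719, 2060.5 and 1621 CPM, a 31.5-fold range. Gnat1 read 8.89, 93.1, 309 and 249 CPM and Sag read 10.4, 92.7, 317 and 247 CPM. Nrl and Crx, the transcription factors of photoreceptors, read 0.988, 17.4, 60.2 and 44.6 CPM for Nrl and 1.46, 8.64, 32.9 and 27.2 CPM for Crx. In all 4 the order was 3, 4, 2, 1, which 16 of the 22 held, against 2.72% of all genes.

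The retina list split by cell. Rod genes kept their ratios, with Gnat1 to Sag at 0.855, 1.00, 0.974 and 1.01 and Pde6b to Sag at 0.195, 0.178, 0.229 and 0.196 in CPM. Rpe65, the retinoid isomerase of the retinal pigment epithelium, read 0.612, 46.4, 12.9 and 8.11 CPM, and Rlbp1, a retinoid carrier of that epithelium and of glia, read 3.67, 63.2, 24.5 and 18.8 CPM. Both were highest in replicate 2, where the pigment genes were highest. Rpe65 to Sag was 0.0588, 0.50, 0.0406 and 0.0329 in replicates 1 to 4, so the proportion of Rpe65 to this rod transcript was not constant and was highest in replicate 2. Without replicate 2, all 22 genes were highest in replicate 3, as were 27.7% of all genes. Without replicate 1 the range of the list's median went from 4.67 to 1.75 on the log2 scale.

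The promoters of Sag and Rbp3, the gene of the retinoid-binding protein of the space around photoreceptors, are shown for the same reason: their levels share an order, and both windows hold TAATCC, the core motif of CRX, here in its reverse complement GGATTA. Sag lies at chr1:87803430-87803729, plus strand, and Rbp3 at chr14:33953753-33954052, plus strand (RefSeq, GRCm38.p6), with the motif in capitals.
Sag: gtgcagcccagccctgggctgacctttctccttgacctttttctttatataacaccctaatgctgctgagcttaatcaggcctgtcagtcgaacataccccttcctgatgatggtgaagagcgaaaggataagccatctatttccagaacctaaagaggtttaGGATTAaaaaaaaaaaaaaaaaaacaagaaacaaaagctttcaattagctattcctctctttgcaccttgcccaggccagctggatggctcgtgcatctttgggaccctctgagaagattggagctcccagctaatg
Rbp3: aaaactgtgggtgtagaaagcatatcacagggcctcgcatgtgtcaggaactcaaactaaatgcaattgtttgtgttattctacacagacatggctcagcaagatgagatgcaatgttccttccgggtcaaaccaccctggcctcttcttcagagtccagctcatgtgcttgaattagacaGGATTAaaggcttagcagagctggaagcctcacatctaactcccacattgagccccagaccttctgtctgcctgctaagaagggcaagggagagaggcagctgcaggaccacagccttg
Rbp3 read 3.76, 45.1, 119 and 95.8 CPM. Of 22 retina genes, 16 had a promoter in the table and 6 held the motif on either strand, against 7.06% of all 32851 promoters.

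Skeletal muscle genes marked replicate 3. Of the 17 that reached the mean of 1 CPM, among 20 listed, 16 were highest there, 11 more than 2-fold above each of the other libraries (background 0.265%), and 12 were lowest in replicate 2. Acta1, skeletal muscle actin, read 11.2, 0.510, 58.0 and 7.71 CPM, and Atp2a1, the calcium pump of fast fibres, read 12.0, 1.26, 55.4 and 5.35 CPM. Mb, myoglobin, read 10.1, 0, 33.6 and 3.97 CPM, and Myh1, a fast myosin, read 6.21, 0, 30.8 and 4.77 CPM; both had 0 counts in replicate 2. The order 3, 1, 4, 2 was held by 11 of 17 genes, against 3.84% of all genes. Tnni2, a fast troponin, was the exception at 19.9, 54.9, 33.3 and 12.0 CPM, highest in replicate 2.

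T cell, B cell, cytotoxic and myeloid genes were high in replicate 4. Ptprc, the CD45 phosphatase of all white blood cells, read 4.800, 11.2, 6.87 and 62.1 CPM. The 21 T cell genes that reached the mean of 1 CPM, of 22 listed, were each highest in replicate 4 (background 20.2%). Of these, 20 were more than 2-fold above each of the others (background 2.49%). The sum over the 22 listed was 13.3, 31.1, 23.8 and 194 CPM. Cd3e, a chain of the T cell receptor complex, read 0.941, 1.81, 1.15 and 11.7 CPM. Cd4, the helper T cell co-receptor, read 0.753, 2.40, 2.01 and 19.5 CPM, and Cd8a, the cytotoxic co-receptor, read 0.659, 1.30, 1.52 and 8.82 CPM. Foxp3, the factor of regulatory T cells, read 0.329, 0.157, 0.260 and 5.17 CPM, or 7, 4, 7 and 116 counts, so the values of the first 3 libraries rest on very few reads. The T cell list's median ranged by 3.07 on the log2 scale with all 4 libraries and by 0.93 without replicate 4.

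B cell and cytotoxic genes moved the same way. The 9 B and plasma cell genes that reached the mean of 1 CPM, of 13 in the table, were each highest in replicate 4. The sum over the 13 was 5.69, 21.1, 7.61 and 271 CPM. Ighm and Igkc, the constant regions of IgM and of kappa light chain, read 1.13, 12.8, 3.34 and 97.1 CPM for Ighm and 0.612, 2.94, 0.706 and 82.1 CPM for Igkc. Igj, the joining chain of secreted IgM and IgA, read 0.753, 0.942, 0.668 and 33.7 CPM, and Cd79a, a signalling chain of the B cell receptor, had 8, 18, 8 and 305 counts. Of the 12 cytotoxic and natural killer genes, 5 passed the mean of 1 CPM and all 5 were highest in replicate 4. Gzmb, granzyme B, had 6, 1, 43 and 202 counts, and Ccl5, a chemokine of T cells, read 0.753, 3.81, 2.23 and 21.1 CPM.

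Myeloid and antigen presenting genes were highest in replicate 4 and next in replicate 2. Of 26 monocyte and macrophage genes, 21 were highest in replicate 4, 21 were lowest in replicate 1, and 16 shared the order 4, 2, 3, 1, against 4.67% of all genes. Lyz2, lysozyme of myeloid cells, read 14.6, 101, 50.2 and 358 CPM. C1qa, a complement chain of macrophages, read 12.7, 53.6, 25.0 and 134 CPM. Ccr2, the receptor that brings monocytes from blood, read 0.424, 7.15, 3.75 and 32.7 CPM. Cx3cr1 and Cd163, genes of resident macrophages, were highest in replicate 2 instead, at 0.894, 15.7, 3.90 and 6.02 CPM for Cx3cr1 and 0.518, 9.38, 2.97 and 3.34 CPM for Cd163. Apoe, a lipid carrier that macrophages, melanocytes and other cells make, read 262, 1884, 215 and 208 CPM, and it set the list's sum, which was highest in replicate 2 (1367, 2911, 1468 and 2539 CPM). Mast cell genes did not follow the other immune cells: of the 6 that reached the mean of 1 CPM, 3 were highest in replicate 2, 2 in replicate 1 and 1 in replicate 4. The list's sum was 243, 119.6, 193 and 133 CPM, and most of it was Kit, given above with the pigment genes. The median deviation of the mast cell list was instead lowest in replicate 1 (-0.75) and highest in replicate 2 (0.50).

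MHC class II genes present peptides to helper T cells. Of the 14 genes of the dendritic cell and MHC class II list that reached the mean of 1 CPM, among 18 listed, 13 were highest in replicate 4 and 12 were more than 2-fold above the others there. The 1 gene highest elsewhere was Zbtb46, a factor of dendritic cells, at 0.847, 4.04, 1.93 and 3.16 CPM. Cd74, the invariant chain, read 78.2, 232, 159 and 1025 CPM, and H2-Eb1, a class II chain, read 24.7, 78.7, 48.1 and 357 CPM. The ratio of Cd74 to H2-Ab1 was 10.4, 9.51, 10.5 and 8.64 in CPM. Without replicate 4 the range of the list's median went from 3.13 to 1.41 on the log2 scale. Ccr7, the receptor of migrating dendritic cells, read 0.376, 0.236, 1.15 and 9.80 CPM. Epcam, which dendritic cells of skin share with epithelium, was the 1 member with a range under 2-fold, at 117, 105.1, 125 and 129 CPM.

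The promoters of H2-Eb1 and H2-Aa, a pair of class II genes with the same order of libraries, hold CTGATTGG, the Y box that NF-Y binds upstream of class II genes. H2-Eb1 lies at chr17:34305617-34305916, plus strand, and H2-Aa at chr17:34287774-34288073, minus strand (RefSeq, GRCm38.p6), with the motif in capitals.
H2-Eb1: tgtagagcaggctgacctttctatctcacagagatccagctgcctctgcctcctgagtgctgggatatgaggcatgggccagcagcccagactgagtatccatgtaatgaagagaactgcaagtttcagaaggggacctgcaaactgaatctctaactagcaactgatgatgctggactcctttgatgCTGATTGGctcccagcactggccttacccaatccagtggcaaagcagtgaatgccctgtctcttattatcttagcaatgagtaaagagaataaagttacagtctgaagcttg
H2-Aa: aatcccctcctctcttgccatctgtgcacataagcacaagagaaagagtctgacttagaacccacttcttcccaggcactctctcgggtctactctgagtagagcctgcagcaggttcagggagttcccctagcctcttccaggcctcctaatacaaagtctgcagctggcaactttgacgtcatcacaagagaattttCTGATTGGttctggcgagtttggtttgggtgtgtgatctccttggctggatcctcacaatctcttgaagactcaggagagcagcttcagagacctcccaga
H2-Aa read 3.67, 11.7, 7.87 and 50.3 CPM. Of the 14 genes of the list, 10 had a promoter in the table and these 2 held the motif on either strand, against 4.10% of all 32851 promoters.

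Interferon response genes did not follow the immune cells. Of 34, 32 were lowest in replicate 2, 24 more than 2-fold below each of the others (background 3.94%). The other 2 were Cxcl9 and Cxcl10. The sum over the 35 genes of the list was 10315, 2775, 10757 and 9468 CPM. Isg15, a ubiquitin-like protein that interferon induces, read 586, 109, 761 and 545 CPM. Ifit1, which binds foreign RNA, read 633, 88.7, 597 and 371 CPM, and Rsad2, the antiviral enzyme viperin, read 285, 26.4, 298 and 141 CPM. Without replicate 2 the range of the list's median was 0.13 on the log2 scale, smaller than for any immune cell list. The highest library by median was replicate 1 with TMM and replicate 3 with upper-quartile scaling or library totals.

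Members of the interferon list differed in their highest library, which was replicate 3 for 15 of 34, replicate 4 for 10 and replicate 1 for 9. Cxcl9 and Cxcl10, chemokines that draw T cells, read 2.26, 10.99, 6.02 and 184 CPM for Cxcl9 and 2.07, 5.50, 3.90 and 41.9 CPM for Cxcl10. Cxcl9 ranged 81.6-fold between replicates 4 and 1. Iigp1 and Gbp5, interferon-inducible GTPases, read 116, 45.0, 59.0 and 333 CPM for Iigp1 and 237, 42.7, 185 and 423 CPM for Gbp5. These 4, chosen after their values were seen, were highest in replicate 4, and Iigp1 and Gbp5 were lowest in replicate 2 like most of the list, whereas Rsad2 and Mx1 were lower in replicate 4 than in replicates 1 and 3, with Mx1 at 90.0, 19.4, 106 and 47.4 CPM.

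MHC class I presentation genes, which show peptides of the cell itself to cytotoxic T cells, combined both patterns. All 20 were highest in replicate 4 and 18 were lowest in replicate 2. B2m, the class I light chain, read 1125, 679.8, 1449.8 and 2246 CPM, and Psmb9, a subunit of the immunoproteasome, read 138, 42.1, 141 and 240.4 CPM. The order 4, 3, 1, 2 was held by 13 of 20, against 5.40% of all genes. Among the 19 cytokine, chemokine and acute phase genes, 11 were highest in replicate 4 and 16 were lowest in replicate 1. Ccl8, a monocyte chemokine, read 0.706, 4.48, 2.49 and 39.4 CPM, and Il1a, an alarm cytokine of epithelium, read 35.8, 10.6, 34.5 and 60.02 CPM. Mmp3, a matrix protease, read 5.51, 26.8, 16.7 and 207 CPM, 7.72-fold above the next library.

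**Figure D2:**
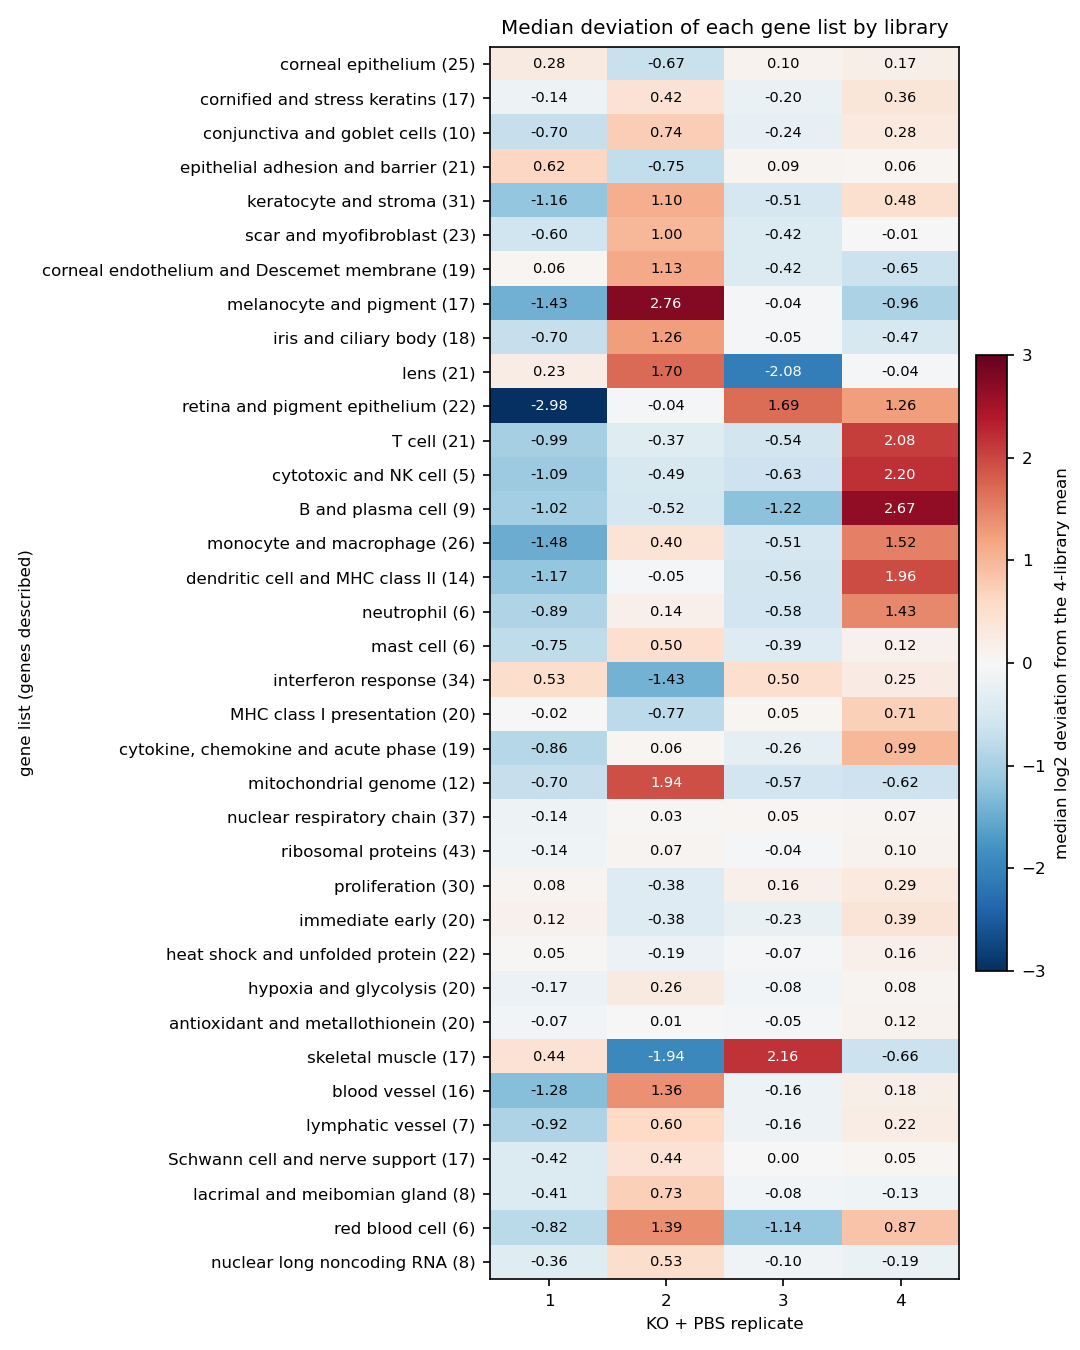
Rows are the 36 gene lists with at least 5 genes described (number in brackets) and columns the 4 KO + PBS replicates; each cell is the list's median deviation, in log2 units, from each gene's mean over the 4 libraries. Pigment genes are highest in replicate 2 (2.76), retina genes lowest in replicate 1 (-2.98) and B and plasma cell genes highest in replicate 4 (2.67), while ribosomal protein genes stay between -0.14 and 0.10.

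By the median of its genes, each of the 37 lists has an order of libraries, and 15 different orders occurred. The order 2, 4, 3, 1 of the stroma was shared by 8 lists, among them scar, blood vessel, lymphatic vessel and conjunctiva. Members with that order were 8 of 23, 8 of 16, 1 of 7 and 5 of 10 respectively (10.1% of all genes). The order 4, 2, 3, 1 was shared by 8 lists, among them T cell, cytotoxic, macrophage and MHC class II genes. Here 10 of 21, 3 of 5, 16 of 26 and 8 of 14 members had that order (4.67% of all genes). The ribosomal and antioxidant lists also had this order, but their highest library became replicate 2 with upper-quartile scaling or library totals. The order 2, 3, 4, 1 was shared by 5 lists, among them pigment, iris and the mitochondrial genome. Members with that order were 10 of 17, 7 of 18 and 3 of 12 respectively (9.68% of all genes). For the mitochondrial genome the medians in replicates 1, 3 and 4 were -0.70, -0.57 and -0.62, so the order of these libraries rests on small differences. Interferon response and epithelial adhesion shared the order 1, 3, 4, 2, held by 7 of 34 and 8 of 21 members (11.8% of all genes). For interferon response the medians in replicates 1 and 3 were 0.530 and 0.505. Its highest library became replicate 3 with upper-quartile scaling or library totals. MHC class I and proliferation shared the order 4, 3, 1, 2, held by 13 of 20 and 10 of 30 members (5.40% of all genes). Lens, retina, skeletal muscle, corneal epithelium and corneal endothelium each had an order of their own among the lists.

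The mitochondrial genome was high in replicate 2 across all its genes. The 12 genes described, of 13 in the table, were each highest in replicate 2 and more than 2-fold above each of the others. mt-Co1, a subunit of cytochrome oxidase, read 3233, 21037, 3627 and 3713 CPM, and mt-Cytb, cytochrome b, read 1634, 10222, 1737 and 1717 CPM, with their ratio at 1.98, 2.06, 2.09 and 2.16. The nuclear genes of the respiratory chain did not share that high level: of 37, none had a range over 2-fold, and the sum was 4807, 4994, 5280.4 and 5415 CPM. Atp5b, a subunit of ATP synthase, read 749.8, 732, 778 and 833 CPM. Ribosomal protein genes were as steady, with 1 of 43 over a 2-fold range (Rps15, at 559, 1125, 634 and 658 CPM). Both lists' highest library by median changed from replicate 4 to replicate 2 with upper-quartile scaling or library totals, so no direction is given for them.

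Proliferation genes were lowest in replicate 2, where 25 of 30 had their lowest value. Pcna, the clamp of DNA polymerase, read 137, 61.1, 144 and 145 CPM, and Rrm2, which makes DNA precursors, read 93.5, 23.2, 87.8 and 85.6 CPM. Mki67, the marker of cycling cells, read 132, 92.3, 106 and 93.6 CPM, with replicates 2 and 4 close together. Without replicate 2 no proliferation gene had a range over 2-fold.

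**Figure D3:**
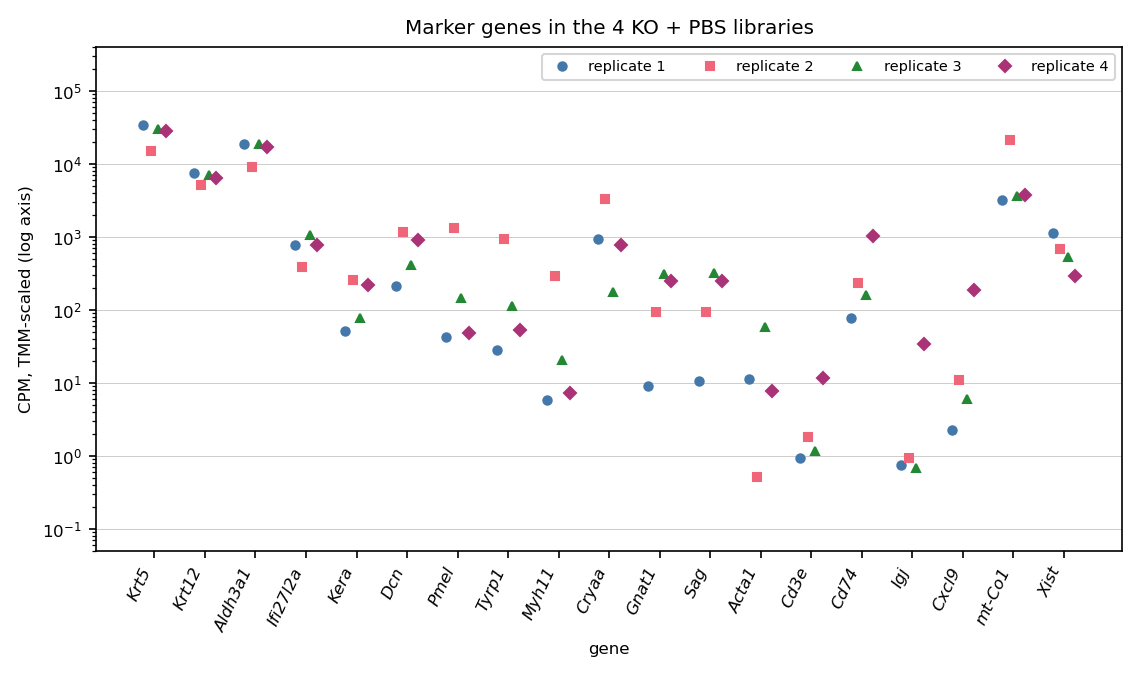
Points give the TMM-scaled CPM (log axis) of 19 marker genes, 1 point for each KO + PBS replicate, with colour and shape naming the replicate. Krt12 lies within a 1.44-fold range, whereas Pmel is highest in replicate 2, Gnat1 lowest in replicate 1, Acta1 highest in replicate 3 and Cxcl9 highest in replicate 4.

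Haemoglobin genes were higher in replicates 2 and 4. Hba-a1 and Hbb-bs, the adult globin chains, read 42.5, 219, 14.6 and 199 CPM for Hba-a1 and 25.2, 140.4, 10.3 and 124 CPM for Hbb-bs, each higher in both of these libraries than in replicates 1 and 3. Globin genes have near-identical copies, so their counts may be split between copies. Ltf, lactoferrin of tears and neutrophil granules, read 6.16, 80.8, 26.0 and 127 CPM. In the neutrophil list, S100a8, Ly6g and Elane were at or near 0, with 2, 2, 11 and 18 counts for S100a8, 1, 0, 4 and 0 for Ly6g and 0, 0, 0 and 0 for Elane. Of the 20 genes of that list, 6 passed the mean of 1 CPM. Among these 6, 4 were highest in replicate 4 (background 20.2%) and 5 were lowest in replicate 1 (background 30.8%).

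Replicate 1 was set apart by long transcripts. The genes furthest above the next library there were led by Malat1, a long nuclear RNA, at 1694, 656, 647 and 397 CPM, Cbl, a ubiquitin ligase, at 66.9, 13.2, 26.6 and 20.1 CPM, and Lcor, a nuclear corepressor, at 39.5, 6.64, 15.6 and 12.4 CPM. Utrn, the large cytoskeletal protein utrophin, read 241, 99.4, 105.1 and 96.7 CPM. Genes highest in replicate 1 had a median exon length of 6184 bases, against 4415 over all genes and 3377 for genes highest in replicate 4. Genes with more than 6 kb of exon had a median deviation of 0.14 in replicate 1 and those under 2 kb of -0.12, against -0.05 and 0.08 in replicate 4. No source used here gives RNA quality, and the part of length in the lists' values was not tested; 20 of 21 adhesion genes and Dsp, at 6291, 1779, 3434 and 3142 CPM, were also highest in replicate 1.

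The 30 most variable genes drew on these same programmes. After Cxcl9, with an SD of 2.62 on the log2 scale, came Mb (2.57), Ctrb1 (2.56), Myh11 (2.54), Zic1 (2.53) and Oca2 (2.48). Rod genes in the set included Nrl, Pdc, Gnat1, Gngt1, Prph2 and Rcvrn, with SDs from 2.25 to 2.43. Grem1, a secreted antagonist of bone morphogenetic proteins, read 0.141, 22.2, 0.817 and 0.446 CPM, and Matn3, a matrix protein of cartilage, read 0.753, 28.7, 1.60 and 0.267 CPM, both far above the others in replicate 2. Rgr, a retinal pigment epithelium opsin, read 0.894, 72.5, 31.2 and 13.0 CPM. Rab3c, a GTPase of secretory vesicles, had 0, 547, 119 and 47 counts. Of the 30, Igj and Cxcl9 were the ones highest in replicate 4.

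Among genes averaging 50 CPM or more, the 10 steadiest had SDs of 0.02 to 0.03. They were Pygo2, Lmbrd1, Grsf1, Babam1, Dgcr2, Gpr108, Park7, Tsn, Tmem134 and Ergic1. Pygo2, a coactivator of Wnt signalling, read 65.5, 65.5, 66.2 and 64.2 CPM, and Park7, an antioxidant protein, read 138, 142, 142 and 143 CPM, ranges of 1.03-fold and 1.04-fold.

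**Figure D4:**
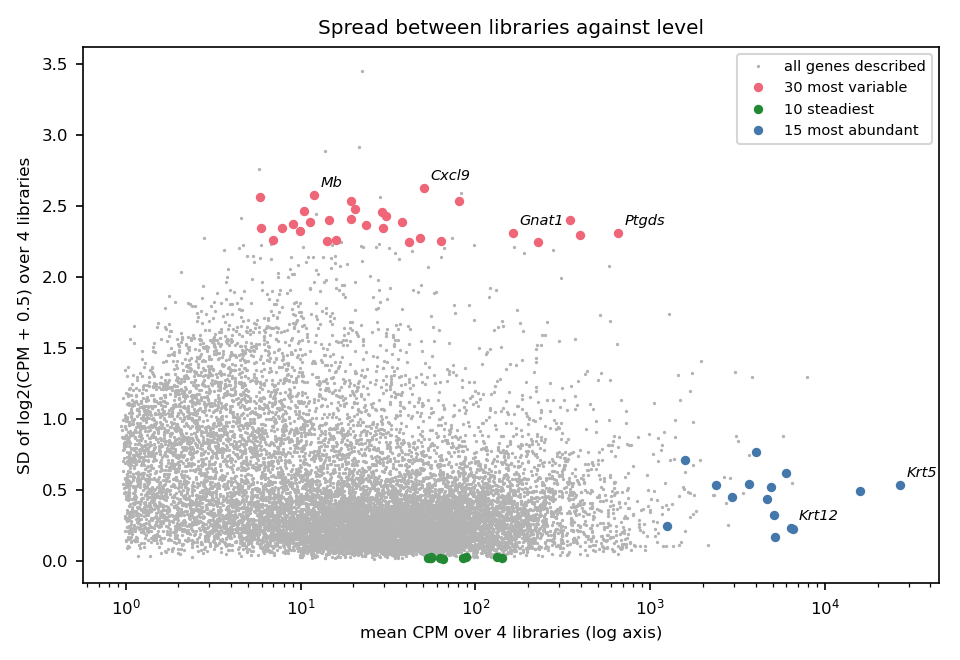
Each point is a gene: its mean CPM over the 4 libraries (log axis) against the SD of its log2(CPM + 0.5) values, with the 30 most variable (red), 10 steadiest (green) and 15 most abundant (blue) named genes marked. Cxcl9 has the largest SD of the genes marked (2.62), while the abundant Krt12 has an SD of 0.23.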

How the data were processed

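Bulk RNA-seq counts per gene name were taken as the authors deposited them; per the submitters' processing notes the tools were fastp, STAR and featureCounts with mouse build mm10, and their settings, the annotation and the use of strand were not stated there. Per the labels' protocols, DNase-treated total RNA was made into libraries with an NEBNext Ultra kit. The 4 columns labelled KO + PBS were used. The 23 rows whose gene name had turned into a date held 0.134 to 0.140% of the counts and were left out.

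Counts were scaled with edgeR 4.0.16 (TMM) in R 4.3.3 over the 14366 genes that reached a mean of 1 CPM, and log2(CPM + 0.5) values were used for ranges, SDs, orders of libraries and principal components; folds between single libraries are ratios of CPM. Because a pseudocount was added, differences on the log2 scale understate those of low genes. Sums of a list cover all its members in the counts, also those under the mean of 1 CPM. The common coefficient of variation came from edgeR's estimateDisp with no covariate. TPM used the union exon length of GENCODE M21. Older gene symbols were matched through RefSeq synonyms. Promoters came from a RefSeq table for GRCm38.p6.

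Genes named were the 15 most abundant nuclear genes by TPM, the 30 most variable with a mean of at least 5 CPM, the 10 steadiest with a mean of at least 50 CPM, the 8 furthest above the next library in each replicate, and in each of 37 lists the 3 of highest mean and the most variable; predicted genes, pseudogenes and receptor segments were passed over. A few genes that the rule or the lists hold are not reported here. Other members of the lists were named as examples after their values were seen. The members and the lists were chosen with earlier results of these data known. The code was tested on simulated counts. Alternatives were RLE, upper-quartile, DESeq2 1.42.0 and total-count scaling, TMM without mitochondrial genes, pseudocounts of 0.1 and 2 CPM, other filters, coding genes alone, other dispersion estimates and leaving out each library.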

Additional observations from a re-analysis of the deposited data

Results flagged for a closer look

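In each group of 4 values, a library was picked out where its gap to the nearest other value took more of the whole range, on the log2 scale, than Dixon's 95% critical value allows; for a value not chosen by its spread, chance does this in about 1 of 20 groups. Many of the genes examined here were chosen for their spread or for their gap to the next library, and the values share 4 libraries, so that rate does not hold for them and the picks are a description. Of 121 genes, list sums and library measures examined, 17 were picked out, and 13 of these were in replicate 2. Abundant epithelial genes stood low in replicate 2 alone: Aldh3a1 at 9154 CPM, Gsta4 at 2845 CPM, Gsto1 at 2961 CPM and Asprv1 at 1656 CPM, together with Calml3, a calmodulin-like protein of epithelium, at 1993 CPM, S100a6, a calcium-binding protein, at 1782 CPM and Psca, a surface protein of epithelia, at 700.2 CPM.

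Summed levels also stood low in replicate 2 for interferon response (2775 CPM), proliferation (861 CPM), heat shock and unfolded protein (4459 CPM) and Schwann cell and nerve support (1876 CPM). The Schwann list's median was highest in replicate 2 (0.44 on the log2 scale), because its sum is led by Mal, Erbb3 and Mbp, at 4042, 1197, 3806 and 3681, 435, 163, 269 and 266 and 235, 114, 205 and 204 CPM, genes that epithelium also expresses. The summed mitochondrial genome stood high in replicate 2 at 55172 CPM, as did its share of counts at 6.13%.

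In replicate 4, Igj at 33.7 CPM and Sla, an adaptor protein of lymphocytes, at 23.7 CPM stood above the other 3 libraries. Utrn at 241 CPM stood high in replicate 1. Replicate 3 stood apart in depth, with 27079143 counts on genes against 22913807 to 22976334 in the others.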

How the results depend on the processing

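No paired analysis was possible because only 1 group was used, so no replicate number is shared between groups. A list's median deviation is relative to the libraries kept: without replicate 2 that of the corneal epithelium was 0.10, -0.04 and -0.06 in replicates 1, 3 and 4, against 0.28, 0.10 and 0.17 with it. The 5556 genes over a 2-fold range became 3438 with a mean of at least 5 CPM, where fewer genes are counted, and 2291 to 5362 when 1 library was left out, 2291 being without replicate 2. Genes more than 2-fold above the others in replicate 1 (33) became 19 with upper-quartile scaling, 18 with library totals and 18 with a pseudocount of 2 CPM, and 62 to 110 with 1 library left out. Those in replicate 3 (38) became 21 with a pseudocount of 2, 65 with no filter, 14 with filterByExpr and 9 with a mean of 5 CPM, and 65 to 222 with 1 library left out. Those in replicate 4 (358) became 211 with filterByExpr and 122 with a mean of 5 CPM, and 399 to 665 with 1 library left out. Fewer libraries to exceed raise such counts by construction.

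With 1 library left out, the range of a list's median on the log2 scale ran from 0.16 to 0.99 for corneal epithelium, 1.38 to 4.23 for pigment, 1.88 to 3.58 for lens, 1.75 to 4.82 for retina, 0.93 to 3.09 for T cells, 1.41 to 3.14 for MHC class II, 0.13 to 1.99 for interferon response and 0.11 to 2.65 for the mitochondrial genome. For stroma it ran from 1.56 to 2.30 and for skeletal muscle from 2.71 to 4.10, within the spread between libraries. Pseudocounts of 0.1 and 2 CPM gave ranges of 3.73 and 2.05 for T cells and 3.45 and 2.39 for MHC class II. For retina they gave 5.00 and 3.64, for skeletal muscle 4.98 and 2.82, and for stroma 2.29 and 2.19. The common coefficient of variation was 0.290 as a median from DESeq2, which is another summary over genes, and 0.371 to 0.527 with 1 library left out. Upper-quartile scaling moved the median of all genes by -0.11 in replicate 1 and 0.11 in replicate 2, and library totals by -0.11 and 0.15; they changed the highest or lowest library of the cornified, interferon, respiratory chain, ribosomal, immediate early, heat shock and antioxidant lists. RLE and DESeq2 gave the same size factors, so they count as 1 alternative, and it moved none of 191 gene values. Upper-quartile scaling moved 14 of them and library totals 18. Depth limits genes of few counts: Cd2 had 4, 13, 20 and 267 counts.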

Other observations

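Transcripts of pancreatic digestive enzymes were found in replicates 1 and 2 and were near the floor in replicates 3 and 4. The genes were looked up after Ctrb1, chymotrypsinogen B, appeared among the most variable. Ctrb1 had 298, 241, 1 and 2 counts in replicates 1 to 4, and Pnliprp1, a pancreatic lipase-related protein, had 244, 171, 0 and 1 counts. Cpa1, a carboxypeptidase, had 49, 47, 0 and 0 counts, Clps, colipase, 52, 30, 0 and 0 counts and Cel, a bile salt lipase, 39, 27, 0 and 1 counts. Over 17 such genes the summed counts were 827, 628, 39 and 42, and in 12 of 17 both replicates 1 and 2 were above both replicates 3 and 4. Ctrl, Pnlip and Try4 did not share the pattern, at 7, 13, 11 and 8, 2, 0, 9 and 0 and 0, 2, 0 and 0 counts, and 2 of the 17 had no count in any library.

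The 2 ribosomal RNAs of the mitochondrial genome had no row in the deposited counts, so its shares cover protein-coding genes alone. Within the mitochondrial genome the counts lay on few genes. mt-Co1, mt-Cytb and mt-Nd1 took 38.1%, 18.5% and 14.98% of its counts in replicate 2 and 37.5%, 19.0% and 14.0% in replicate 1. mt-Co2, mt-Co3 and mt-Atp6 took 0.16%, 0.14% and 0.11% in replicate 2, and the cause of these low shares was not tested. The share of mt-Nd5 was 10.5%, 9.91%, 8.52% and 7.58% in replicates 1 to 4.

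Genes of immediate early response differed without a common order. Fosl2 read 984, 242, 620.5 and 615 CPM, lowest in replicate 2, while Atf3, a stress transcription factor, read 16.1, 40.6, 3.19 and 21.9 CPM, highest in replicate 2. Of the 20 genes of that list, 10 were highest in replicate 4 (20.2% of all genes) and 12 were lowest in replicate 2 (38.5% of all genes). The long nuclear RNAs also went apart: Neat1 read 796, 2872, 1051 and 808 CPM, highest in replicate 2, whereas Malat1 read 1694, 656, 647 and 397 CPM, highest in replicate 1.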
